A study of Mus musculus with 14 samples.

Results

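The comparison set RNA-seq of cells that overexpress miR-93-5p against RNA-seq of cells that overexpress a mutated miR-93-5p, and so asked which messenger RNAs differ between the intact microRNA and its altered form. Both lines were derived from LEPC, a mouse cell line of the C57BL/6 strain whose name the labels do not spell out, which the labels put at 3 passages and which belongs to a study of liver cancer. The study holds 14 samples, and 2 of them, 1 library for each construct, form the comparison; the scr control library was not used. Cells were grown in serum-supplemented DMEM with penicillin and streptomycin, RNA was taken with Trizol, and libraries were made from total RNA with an Illumina TruSeq kit. The bases changed in the mutant, the vector and its promoter, whether either line was a clone, and the level of the microRNA reached are not given in the sources used here. Everything apart from the construct that may differ between the 2 lines (selection, culture, library preparation) cannot be told apart from it.

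The deposited tables list loci assembled in each library alone, 16822 in the miR-93-5p library and 18076 in the mutant library, each with an FPKM and its lower and upper bound. FPKM is the number of fragments mapped to a locus, scaled to the length of its assembled model and to the depth of the library. Loci carry no gene name, so each was named by the mouse mm9 gene locus with which it had its best mutual overlap, if the shared length reached 0.5 of the joint length. This named 9054 loci in the miR-93-5p library and 9093 in the mutant library, and 8717 protein-coding genes were named in both. After 98 genes with a mean FPKM under 1 were set aside, 8619 genes were compared. With 1 library per construct there is no replicate error, no test and no p-value, and every difference given below is a difference between these 2 libraries.

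MicroRNAs are short RNAs that guide an Argonaute protein to matching sites, mostly in the 3′ untranslated regions of messenger RNAs, where they lower translation and RNA stability. Pairing depends above all on the seed near the 5′ end of the microRNA, so a mutated seed changes the set of messages that can be bound. miR-93-5p belongs to the miR-17 family, whose reported targets include the cell cycle inhibitor Cdkn1a, the TGF-beta receptor Tgfbr2 and the transcription factor E2f1, and it is made from a cluster, with miR-106b and miR-25, inside an intron of Mcm7. The sequences below (RefSeq annotation of GRCm38.p6) show what the members of the family share. Capitals mark the seed, bases 2 to 8, and miR-6383, which is not a family member by name, is shown because it is the other mouse microRNA with that seed. The gene position of mature miR-93-5p is chr5:138165574-138165596 on the minus strand of that build.
miR-93-5p: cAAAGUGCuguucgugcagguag
miR-17-5p: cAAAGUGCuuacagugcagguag
miR-20a-5p: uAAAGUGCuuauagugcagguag
miR-20b-5p: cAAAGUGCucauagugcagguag
miR-106a-5p: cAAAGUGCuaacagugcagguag
miR-106b-5p: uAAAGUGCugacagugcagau
miR-6383: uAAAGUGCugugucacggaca

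Of 1679 mature mouse microRNAs in the table, these 7 carry AAAGUGC as their seed. Compared base by base from the 5′ end over the 23 bases of miR-93-5p, miR-20b-5p is the same at 20 positions, miR-17-5p, miR-20a-5p and miR-106a-5p at 19, miR-106b-5p at 16 and miR-6383 at 10. A mature microRNA is shorter than the fragments that an mRNA library keeps, so the level of miR-93-5p itself was not measured here. What the libraries do hold is the host locus. The assembled locus that spans Mir106b (mm9 chr5:138606965-138607046), a member of the cluster that holds Mir93, had an FPKM of 168 (bounds 161 to 176) in the miR-93-5p library and of 224 (215 to 234) in the mutant library, a log2 ratio of -0.41. Mcm7 was not analysed here.

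The deposited bounds also give the depth behind each value. If counting were the only error, the bounds of a locus lie 2 counting errors from its FPKM, and the fragments that this implies sum to 15301761 in the miR-93-5p library and 19513879 in the mutant library. Anything else that widened a bound lowers the implied fragments, so they are a second reading of the same deposited tables and no independent assay. Their merit is that they do not divide by the length of a model that was assembled in each library separately. Markers of epithelium and of mesenchyme were both present. Simple keratins were high in both libraries, with Krt8 at 230 FPKM in miR-93-5p and 283 in mutant, Krt18 at 200 and 253, and Krt19 at 418 and 522. E-cadherin, Cdh1, was low at 1.52 and 3.87, while the mesenchymal filament gene Vim stood at 711 and 784 and N-cadherin, Cdh2, at 31.2 and 22.8. The secreted phosphoprotein gene Spp1 stood at 1076 and 1077. Of 9 hepatocyte markers, 5 had a locus in the miR-93-5p library and 7 in the mutant library, with Alb and Ttr listed in the mutant library alone, at 1.08 and 2.04 FPKM. Of 6 biliary or progenitor markers, 3 and 4 had a locus, and Epcam and Prom1 had none. None of 4 endothelial and none of 7 stellate cell or fibroblast markers had a locus in either library, and of 4 leukocyte markers Ptprc and Adgre1 had none while Cd68 and Csf1r were overlapped by loci in both.

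Most genes had nearly the same level in both libraries. The median log2 ratio of miR-93-5p over mutant, taken after adding 1 FPKM to each value, was 0.014 over the 8619 genes, the middle range from the 25th to the 75th percentile ran from -0.15 to 0.19, and 89.1% of genes differed by less than 1.5-fold. The rank correlation of the FPKM across genes was 0.965, a description in which genes are not independent. By FPKM, 162 genes were at least 2-fold higher in miR-93-5p (1.88% of those compared) and 156 at least 2-fold lower (1.81%), together 3.69%. By implied fragments, scaled to a median ratio of 1 and with 10 added, 497 genes were higher (5.91% of 8412 genes with usable bounds) and 539 lower (6.41%). Genes past 2-fold in the same direction in both measures numbered 47 higher (0.559%) and 68 lower (0.808%), together 1.37%, and the deposited bounds of the 2 libraries did not overlap for any of these 115. They are the genes with which the description leads, and folds are given on the scale of FPKM + 1.

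**Figure D1:**
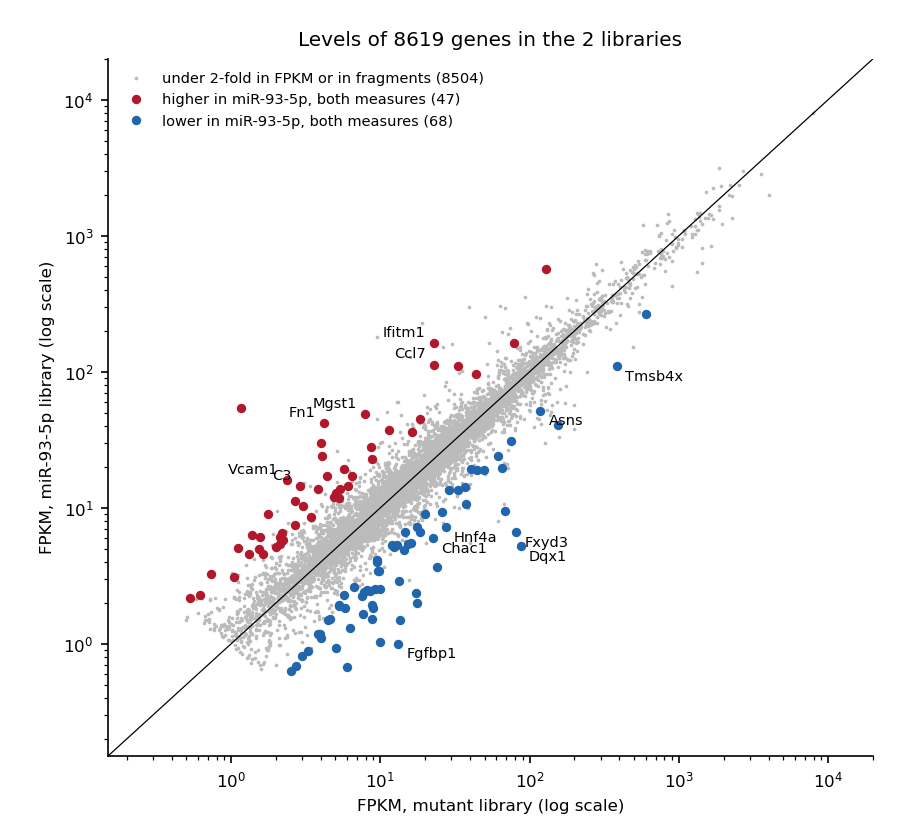
FPKM of each of the 8619 genes in the mutant library (horizontal axis, log scale) and in the miR-93-5p library (vertical axis, log scale), 1 point per gene, with the line of equal levels. Points on both sides of the line carry colour where a gene was past 2-fold in FPKM and in implied fragments, 47 above and 68 below; Fn1 and Dqx1 lie far from it at moderate levels.

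Just inside the 2-fold limit in FPKM were Zc3h12a (log2 ratio 1.001) and Nrp2 (1.01) among the higher genes and Dlk2 (-1.0004) and Chchd1 (-1.003) among the lower. Just outside it were Fam84b (0.99), Megf10 (0.99), C330018D20Rik (-0.996) and Dcbld1 (-0.99). Low genes gave a large part of the called ones. With genes split by mean FPKM into 4 groups of like size, the lowest group (up to 7.21) had 20 higher and 33 lower in both measures, against 6 and 10 in the highest. Counting error on the log2 scale had a median of 0.110 in the lowest group and 0.046 in the highest.

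The genes higher in miR-93-5p included cell surface, matrix and secreted products. Fn1, which encodes the matrix glycoprotein fibronectin, stood at 41.7 FPKM (40.2 to 43.2) in miR-93-5p and 4.17 (3.90 to 4.44) in mutant, 8.26-fold higher. Ifitm1, an interferon-induced membrane protein that restricts virus entry, stood at 163 (154 to 172) and 22.9 (20.5 to 25.4). Scara5, a scavenger receptor that takes up ferritin, was listed at 29.9 FPKM in miR-93-5p and 3.98 in mutant. For these genes the levels in the 2 libraries lay far outside each other's bounds. Mgst1, a membrane-bound glutathione transferase, was 5.54-fold higher (48.6 and 7.95 FPKM). Vcam1, the adhesion molecule that binds leukocyte integrins, was 5.05-fold higher (16.0 and 2.37). Aebp1, a collagen-binding matrix protein, was 4.92-fold higher (24.1 and 4.10), and Abcg2, an efflux pump known from stem-like cells, 3.61-fold higher (9.03 and 1.78). Enpp2, the secreted enzyme that makes lysophosphatidic acid, stood at 17.2 and 4.37 FPKM, and Ptgds, which makes prostaglandin D, at 110 and 32.9. Others in the leading 20 were the fatty acid transporter Slc27a1 (3.10-fold), the microtubule-associated kinase Dclk1 (3.09-fold), the pattern recognition receptor Tlr2 (2.89-fold), Qpct, Gxylt2 and Tspan7. The largest ratio of all, that of Pdcd2 (54.4 and 1.17 FPKM, 25.6-fold), is less certain. Pdcd2 overlaps Tbp, the libraries are not labelled as keeping strand, and its loci in the 2 libraries shared 0.69 of their joint length. Summed over all loci best assigned to Pdcd2, the log2 ratio was -0.10. Uqcr10, a subunit of respiratory complex III, stood at 569 and 129 FPKM, also with loci that shared 0.69 of their joint length.

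The genes lower in miR-93-5p included epithelial and liver genes. Dqx1, which encodes a putative RNA helicase, stood at 5.23 FPKM (4.45 to 6.00) in miR-93-5p and 87.1 (82.9 to 91.3) in mutant, 14.1-fold lower, with loci that shared 0.70 of their joint length. Fxyd3, a regulator of the sodium pump in epithelia, stood at 6.65 (4.87 to 8.42) and 81.7 (76.8 to 86.6), 10.8-fold lower, and overlaps Lgi4. Fgfbp1, which releases fibroblast growth factors from the matrix, was 7.10-fold lower (1.00 and 13.2 FPKM). Each of these sits at the level of a few FPKM in miR-93-5p and above 10 in mutant. Anks4b, a component of the links between microvilli, was 5.45-fold lower (2.38 and 17.4), and Vsig1, a junctional protein of gastric epithelium, 5.36-fold lower (3.65 and 23.9). Cxcl16, a membrane-bound chemokine, stood at 1.51 and 13.5 FPKM, against the direction of the other chemokines described below, and overlaps Zmynd15. The growth factor gene Btc (betacellulin) stood at 1.92 and 8.78, the calcium-binding protein gene S100g at 40.9 and 155, and the protein phosphatase gene Ptpn13 at 1.53 and 8.74. Tmsb4x, which encodes the actin-sequestering thymosin beta 4 and is the most abundant gene in this leading set, stood at 110 (104 to 115) and 383 (376 to 391). Tmem230 (9.46 and 69.0, with loci that shared 0.54 of their joint length), Gimd1, Sncg, Adap1, Galnt11, Rbpms and Rab17 complete the leading 20 with the liver regulator Hnf4a and the stress gene Chac1, described below. S100g, Lgals2, Pklr and Camsap3 also overlap another coding gene, so reads of each pair cannot be told apart without strand. Bcar3, an adaptor of adhesion signalling, was 5.44-fold lower at its best-matching locus (1.03 and 10.0 FPKM), but its summed loci gave a log2 ratio of 0.29.

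**Figure D2:**
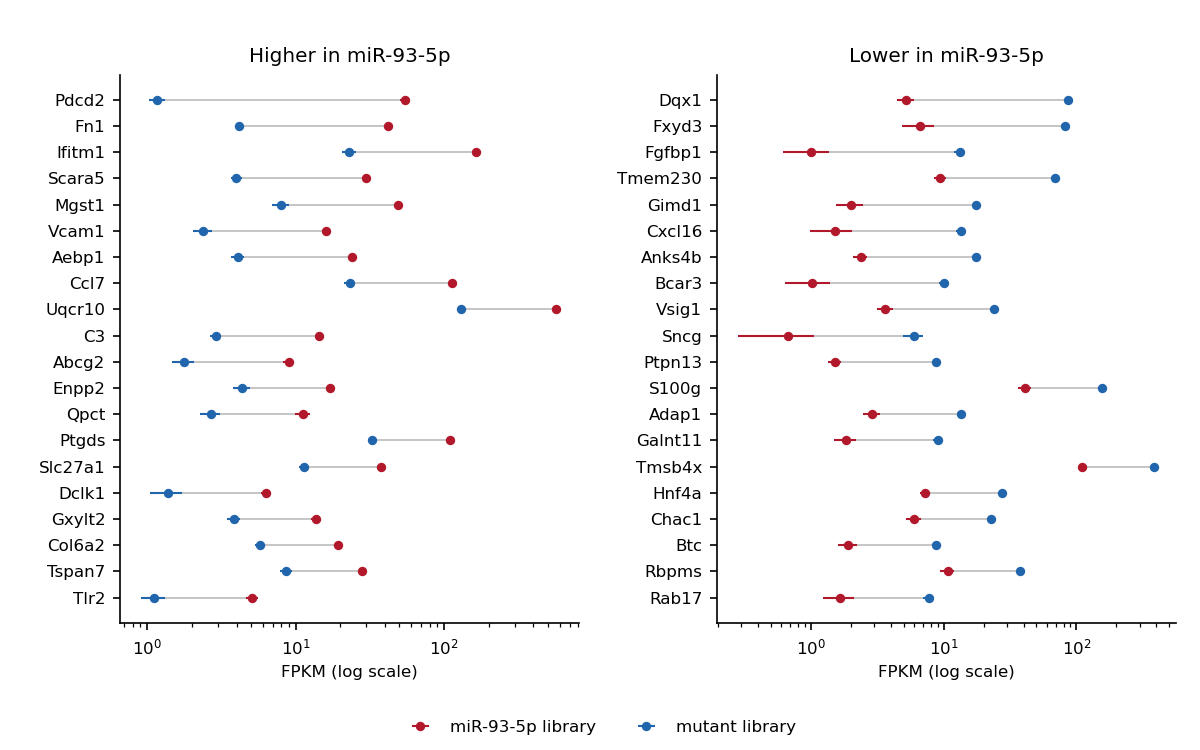
FPKM (log scale) in the miR-93-5p library (red) and the mutant library (blue) of the 20 genes with the largest ratios in each direction among those past 2-fold in both measures; bars are the deposited bounds and grey lines join the 2 libraries. In each row the bounds are apart, with Fn1 at 41.7 against 4.17 and Dqx1 at 5.23 against 87.1.

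Chemokine genes were higher in miR-93-5p. These genes encode secreted attractants of neutrophils (Cxcl1, Cxcl2, Cxcl3, Cxcl5) and monocytes (Ccl2, Ccl7, Ccl8). Of a list of 20 such genes and related cytokines, 10 were measured, 6 were past 2-fold higher by FPKM and none lower, and 2 (Ccl7 and Cxcl3) were higher in both measures; 1.88% of all genes were as much higher by FPKM. The median log2 ratio was 1.30, against 0.014 for all genes, and 0.78 in implied fragments. Ccl7 stood at 113 FPKM (108 to 118) in miR-93-5p and 23.1 (21.1 to 24.99) in mutant. Cxcl3 stood at 44.9 (42.5 to 47.2) and 18.3 (16.96 to 19.7). Both measures put these 2 genes past 2-fold. Cxcl5 stood at 254 and 50.7 FPKM but had a log2 ratio of 0.44 in implied fragments. Cxcl1 stood at 304 and 63.3, with 0.90 in implied fragments. Cxcl2, at 14.4 and 3.40, had -0.30 in implied fragments, so its call rests on FPKM alone. Ccl8 (7.76 and 2.41) and Ccl2 (348 and 179) lay near the limit in one or both measures. Cxcl5, Cxcl3, Cxcl1 and Cxcl2 lie next to each other on chromosome 5 among the compared genes, and Ccl7 and Ccl8 on chromosome 11. Csf1 (25.6 and 20.8 FPKM) and Il1a (0.917 and 1.09) were under 1.5-fold.

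Since 3 of these neighbours carry the same NF-kB motif at a like distance from their start, the 200 bases before the start site are shown (RefSeq, GRCm38.p6, plus strand), with GGAATTTCC in capitals. The windows are chr5:90891045-90891244 for Cxcl1, chr5:90903699-90903898 for Cxcl2 and chr5:90785901-90786100 for Cxcl3.
Cxcl1: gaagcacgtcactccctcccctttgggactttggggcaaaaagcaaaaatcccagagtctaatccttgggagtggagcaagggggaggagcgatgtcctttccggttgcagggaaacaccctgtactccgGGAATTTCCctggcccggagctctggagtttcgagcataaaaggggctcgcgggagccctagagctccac
Cxcl2: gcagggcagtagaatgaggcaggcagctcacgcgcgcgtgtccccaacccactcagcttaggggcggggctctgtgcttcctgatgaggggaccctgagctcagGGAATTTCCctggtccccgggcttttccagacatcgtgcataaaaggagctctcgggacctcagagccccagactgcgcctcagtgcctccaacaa
Cxcl3: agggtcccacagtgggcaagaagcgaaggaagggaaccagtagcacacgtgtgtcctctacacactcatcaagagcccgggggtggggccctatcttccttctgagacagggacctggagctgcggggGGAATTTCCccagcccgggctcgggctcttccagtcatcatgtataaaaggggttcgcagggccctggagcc

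The motif begins 70 bases before the start in Cxcl1, 96 in Cxcl2 and 72 in Cxcl3. It was searched on both strands in windows from 250 bases before to 50 after each start, and 3 of the 7 windows of the chemokine list held it, against 0.317% of 32851 mouse windows and 0.349% of the 8872 windows of compared genes. Of 2 other forms of the site searched, GGGATTTCC was in 0 of the 7 windows and GGACTTTCC in 1. Of the 44 windows of the genes higher in both measures, 1 held it. The 3 promoters are those of related neighbouring genes and are not independent. Chemokine genes are known NF-kB targets and the list was chosen with earlier results of these data known. The share of the list is thus in part what its choice would give. A match is only a run of letters, and no binding was measured.

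A list of NF-kB factors, feedback genes and response genes leaned the same way, though its subunit genes did not. The NF-kB pathway turns on chemokine, adhesion and complement genes after inflammatory signals. Of 21 measured genes of a list of 26, 17 had a ratio above 0 (52.5% of all genes had). By FPKM 3 were past 2-fold higher, and 2, Vcam1 and the complement gene C3, in both measures, against 1.88% and 0.559% of all genes. C3, the central complement component, stood at 14.4 FPKM (13.7 to 15.0) and 2.89 (2.65 to 3.14). Zc3h12a, an RNase that degrades cytokine messages, stood at 5.13 and 2.06, and Bcl3, a nuclear partner of NF-kB, at 29.6 and 14.4. In implied fragments Zc3h12a had a log2 ratio of 0.94 and Bcl3 of 0.22. The inhibitor genes Nfkbia (52.4 and 33.9) and Tnfaip3 (10.5 and 7.35) were under 2-fold. The subunit genes were nearly level, Rela at 36.6 and 34.8 and Nfkb1 at 21.3 and 19.2. The list median was 0.34, and 0.27 with a pseudocount of 5 FPKM. Other genes of inflammation in the called set were Tlr2 (5.11 and 1.11 FPKM) and the factor gene Cebpd (3.28 and 0.733).

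Interferon response genes had a median log2 ratio of 0.59 over 17 measured genes of 39 on the list. By FPKM, 4 were past 2-fold higher and none lower, and 2 of them, Ifitm1 and Parp14, were higher in both measures, against 1.88% and 0.559% of all genes. Parp14, an ADP-ribosyltransferase, stood at 6.16 and 2.12 FPKM. Ifitm3 stood at 293 and 68.8 FPKM, yet its log2 ratio in implied fragments was 0.09, and Ifitm2 at 253 and 111, with 0.86. Ifitm1, Ifitm2 and Ifitm3 are related neighbours on chromosome 7, and reads from stretches that members share may be divided between them. Irf1 (55.3 and 31.9), Bst2 (102 and 67.9) and B2m (464 and 291) were higher by less than 2-fold. Class I heavy chain genes H2-K1 (17.4 and 17.2) and H2-D1 (37.8 and 47.6) were level or lower. Samd9l, an interferon-inducible gene outside the list, stood at 36.3 and 16.4 FPKM and was past 2-fold in both measures.

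Matrix genes had mostly higher values in miR-93-5p, 17 of 24 with a ratio above 0 (52.5% of all genes had). Of the 24 measured genes of a list of 52, 4 were past 2-fold higher and 2 lower by FPKM, and 3 higher (Fn1, Col6a1, Col6a2) and 1 lower (Lamb3) in both measures. Of all genes, 1.88% were as much higher and 1.81% lower by FPKM, and 0.559% and 0.808% in both. The type VI collagen genes Col6a1 and Col6a2, neighbours on chromosome 10, stood at 97.2 against 44.1 FPKM and at 19.3 against 5.76. Lamb3, a laminin chain of epithelial basement membranes, stood at 5.44 FPKM (4.98 to 5.91) in miR-93-5p and 15.4 (14.6 to 16.2) in mutant. Ccn2 (3.21 and 7.62) and Ccn1 (7.68 and 15.5), which respond to TGF-beta and YAP, had lower values in miR-93-5p. S100a4 (307 and 129) was past 2-fold by FPKM only, with 0.77 in implied fragments. The list median of 0.36 was 0.22 with a pseudocount of 5 FPKM, 0.30 with a mean FPKM of at least 5 and 0.24 where loci had to share 0.9 of the joint length. Because no defining stellate cell or fibroblast marker had a locus in either library, Pdgfra, Pdgfrb, Col1a1 and Col3a1 included, no value of those cells stood beside the difference.

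Some genes of hepatocyte identity, Hnf4a and Foxa3 among them, were lower in miR-93-5p. Of 10 measured genes of a list of 44 hepatocyte markers, 4 were past 2-fold lower in both measures and none higher, while 1.81% of all genes were as much lower by FPKM and 0.808% in both. Hnf4a, the nuclear receptor that maintains hepatocyte identity, stood at 7.22 FPKM (6.68 to 7.76) in miR-93-5p and 27.4 (26.3 to 28.6) in mutant. Foxa3, a forkhead factor of the liver, stood at 1.94 (1.54 to 2.34) and 5.26 (4.69 to 5.84). Apob, the structural protein of lipoproteins, stood at 2.54 (2.38 to 2.70) and 10.0 (9.74 to 10.3). The bounds of the 2 libraries were apart for each of these 3. Other liver factors did not follow. Foxa2 stood at 19.9 and 23.8 FPKM, Cebpa at 5.17 and 3.00 and the bile acid receptor gene Nr1h4 at 3.33 and 1.69. The list median was -0.34, -0.23 with a pseudocount of 5 or loci that share 0.9 of the joint length, and -0.12 with loci summed per gene. Other genes of liver or gut epithelium among those lower in both measures were Vnn1 (31.0 and 74.6 FPKM), the liver pyruvate kinase gene Pklr (3.45 and 9.74) and Lgals2 (19.7 and 65.1). In bulk RNA, fewer cells of a type and less RNA per cell cannot be told apart.

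Genes of the amino acid stress response were lower in miR-93-5p as a group. When amino acids run short or the endoplasmic reticulum is stressed, phosphorylated eIF2 raises translation of ATF4, which with CHOP turns on genes for amino acid synthesis, uptake and tRNA charging. Of 30 measured genes of a list of 40, 25 had a ratio below 0 (47.5% of all genes had), 9 were past 2-fold lower by FPKM and none higher, and 7 were lower in both measures, against 1.81% and 0.808% of all genes. The median log2 ratio was -0.73 by FPKM and -0.41 by implied fragments. Chac1, which degrades glutathione, stood at 5.97 FPKM (5.17 to 6.76) in miR-93-5p and 22.6 (21.3 to 23.9) in mutant. Cth, which makes cysteine, stood at 2.54 (2.06 to 3.02) and 9.23 (8.41 to 10.0). Trib3, a pseudokinase that feeds back on ATF4, stood at 9.28 (8.45 to 10.1) and 25.8 (24.6 to 26.9). The 3 genes were each at least 2.60-fold lower. Asns, which makes asparagine, stood at 51.9 (49.9 to 53.9) and 118 (115 to 120). The mitochondrial folate enzyme gene Mthfd2 stood at 23.9 and 61.8 FPKM. Slc7a1, a transporter of cationic amino acids, stood at 13.4 and 28.9, and Pycr1, a proline synthesis enzyme, at 4.14 and 9.55. Atf4 itself stood at 123 and 187 FPKM, a log2 ratio of -0.61, but at 1.81 in implied fragments. Aldh18a1, at 18.7 and 45.0 FPKM, was past 2-fold by FPKM with a log2 ratio of -0.36 in implied fragments.

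Herpud1, a degradation factor of the endoplasmic reticulum, was the largest difference of the list by FPKM (38.2 and 198, log2 ratio -2.35) and pointed the other way in implied fragments (2.06). Members that differed little were Phgdh (276 and 338), Slc38a2 (92.05 and 95.9), Cebpg (30.5 and 28.9) and Gdf15 (48.7 and 45.5). Ddit4 (48.5 and 29.6) and Got1 (117 and 88.6) were higher by less than 2-fold. The transporter genes Slc7a11 (0.901 and 1.76) and Slc1a4 (8.52 and 17.04) were lower by less than 2-fold in FPKM. Chaperones of the endoplasmic reticulum, on a list of their own, showed no such shift, with a median of 0.076 over 22 genes and with Herpud1, which is on both lists, as the single gene past 2-fold. The 18 cytosolic aminoacyl-tRNA synthetases, which load amino acids on tRNAs and which ATF4 also controls, had 17 ratios below 0 and a median of -0.44 by FPKM. None was past 2-fold by FPKM, with Cars at 47.0 and 86.0 FPKM, Farsa at 40.6 and 73.5, Nars at 76.6 and 133 and Gars at 102 and 171. The median in implied fragments was 0.09, the opposite direction, so the shift of this list rests on FPKM alone.

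**Figure D3:**
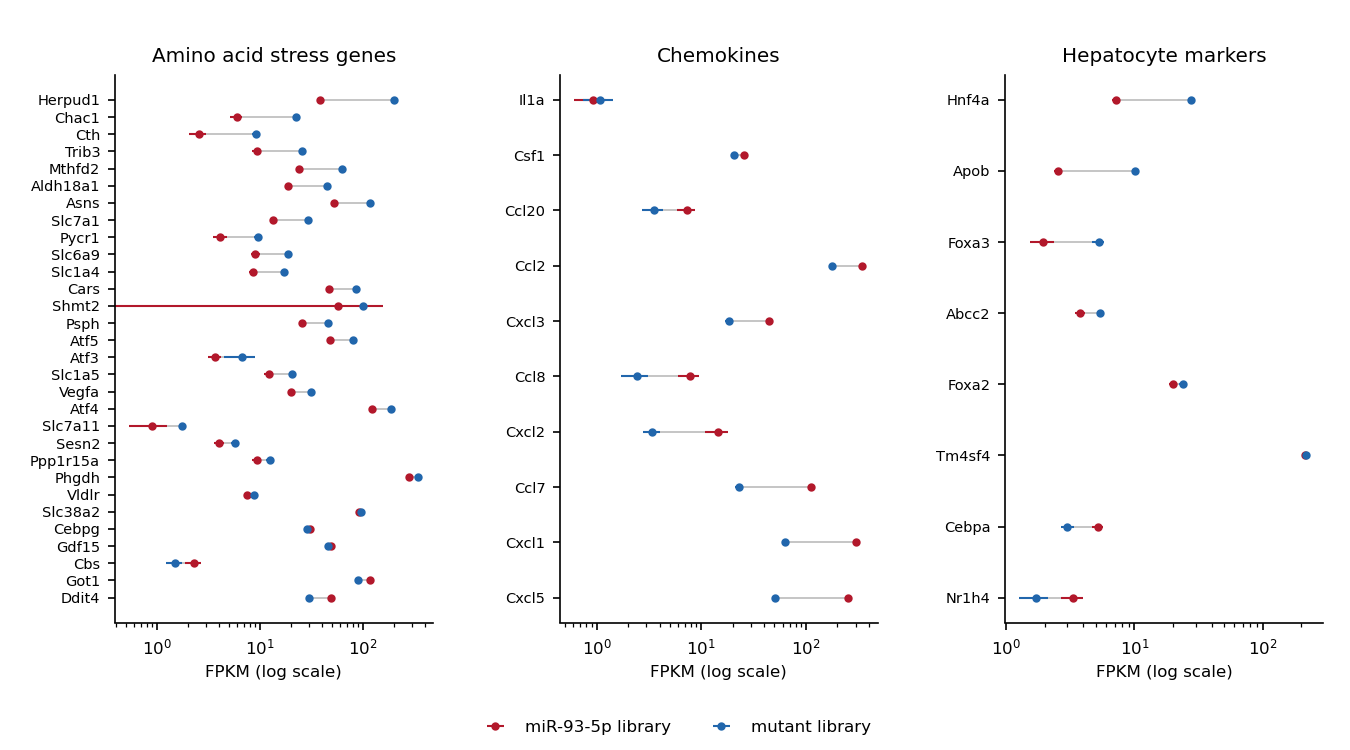
FPKM (log scale) in the miR-93-5p library (red) and the mutant library (blue) for members of 3 lists: 30 amino acid stress genes, 10 chemokine and cytokine genes and 8 of the 10 measured hepatocyte markers, ordered by their ratio; bars are the deposited bounds, and the bar of Shmt2 reaches 0 and leaves the axis. In the first panel 25 of 30 red points lie left of the blue ones, in the second panel 9 of 10 lie right of them, and in the third Hnf4a, Apob and Foxa3 lie left.

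The promoters of 3 of the amino acid stress genes past 2-fold in FPKM hold TTGCATCA, the core of the composite element that ATF4 and CHOP bind, and are printed for that reason. Capitals mark the motif, which reads TGATGCAA in Pycr1, where it lies on the other strand. The 200 bases before the start are chr2:119351042-119351241 on the plus strand for Chac1, chr8:94386229-94386428 on the plus strand for Herpud1 and chr11:120643749-120643948 on the minus strand for Pycr1 (RefSeq, GRCm38.p6).
Chac1: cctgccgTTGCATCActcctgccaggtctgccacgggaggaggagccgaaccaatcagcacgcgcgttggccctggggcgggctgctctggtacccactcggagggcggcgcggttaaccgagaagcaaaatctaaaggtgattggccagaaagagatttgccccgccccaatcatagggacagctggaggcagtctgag
Herpud1: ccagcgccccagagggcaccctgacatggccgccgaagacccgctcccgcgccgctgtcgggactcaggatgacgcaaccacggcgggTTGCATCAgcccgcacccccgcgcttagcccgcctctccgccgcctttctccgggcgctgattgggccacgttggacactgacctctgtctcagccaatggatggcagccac
Pycr1: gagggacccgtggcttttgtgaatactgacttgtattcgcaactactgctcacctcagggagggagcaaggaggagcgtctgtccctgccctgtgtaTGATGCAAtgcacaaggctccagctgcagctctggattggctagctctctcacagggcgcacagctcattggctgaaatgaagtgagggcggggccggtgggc

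The motif begins 193 bases before the start in Chac1, 112 in Herpud1 and 103 in Pycr1. On either strand it was found in 8 of 34 promoter windows of the list (23.5%) and in 3 of the 9 windows of its members past 2-fold, against 0.541% of windows of all compared genes and 0.895% of all windows. Genes were put on the list as known ATF4 or CHOP targets, so that share is in part what the list was chosen for. Among all genes lower in both measures 3 of 72 windows held it, and among those higher 0 of 44. Galnt11, which is on no list, is the other lower gene with the motif. The AP-1 site TGACTCA lay in 4 of 44 windows of higher genes and in 6 of 72 of lower genes (3.48% of windows of all compared genes), and the TATA box TATAAA in 6 of 44 and 12 of 72 (6.33%).

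Junction and brush border genes had mostly lower values in miR-93-5p, with few past 2-fold. Of 18 measured genes of the list of epithelial junctions and simple keratins, 13 had a ratio below 0 (47.5% of all genes had). None was past 2-fold by FPKM, and the list median was -0.33 by FPKM and -0.42 in implied fragments. E-cadherin, Cdh1, stood at 1.52 and 3.87 FPKM, the desmosomal cadherin Dsg2 at 2.96 and 6.69, the splicing regulator Esrp2 at 7.57 and 15.8 and Krt20 at 1.84 and 4.54. These 4 lay just under 2-fold on the scale of FPKM + 1 and were past 2-fold lower in implied fragments, with log2 ratios of -1.06 for Cdh1, -1.11 for Dsg2, -2.71 for Esrp2 and -2.05 for Krt20. The junction genes Tjp1 (29.7 and 32.5) and F11r (77.0 and 72.4) were nearly level. The list median was -0.12 where a locus had to share 0.9 of its joint length with the gene. On the list of microvillus and brush border genes, 5 of 23 were measured; Anks4b was lower in both measures, the metalloprotease gene Mep1a by FPKM only (8.53 and 19.2), and Ezr stood at 229 and 249.2. On the list of motile cilium genes, 5 of 36 were measured, 3 with a ratio above 0 and 2 past 2-fold lower in both measures. Of all genes, 1.81% were at least 2-fold lower by FPKM and 0.808% in both measures. Foxj1, the master factor of motile cilia, stood at 0.935 FPKM (0.660 to 1.21) and 5.08 (4.62 to 5.54), and Spag1, an assembly factor of ciliary dynein, at 2.23 (1.91 to 2.55) and 7.51 (7.03 to 7.98). The factors Rfx2 (5.42 and 4.94) and Rfx3 (3.35 and 2.96) differed little.

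Sterol synthesis and glycolysis leaned in opposite directions, by small steps. Of 29 measured genes of cholesterol and fatty acid synthesis, 23 had a ratio below 0 (47.5% of all genes had). Fdft1, the squalene synthase, which overlaps Ctsb, was alone past 2-fold lower, in both measures (19.3 and 40.6 FPKM). Of all genes, 1.81% were as much lower by FPKM and 0.808% in both. Cyp51 stood at 37.7 and 67.6, Mvk at 33.3 and 49.7, Sqle at 44.8 and 63.6, and Sc5d, against the trend by FPKM, at 33.5 and 18.3. In implied fragments Cyp51 (log2 ratio 1.40) and Sc5d (-2.38) each pointed the other way, past 2-fold, and Mvk had -0.30. The median was -0.32 by FPKM and -0.10 by implied fragments. Of 26 genes of glycolysis and hypoxia, 22 had a ratio above 0 (52.5% of all genes had). None was past 2-fold by FPKM, and the median was 0.33, or 0.26 by implied fragments. P4ha1, a prolyl hydroxylase of collagen, stood at 10.5 and 4.83 FPKM, the pyruvate dehydrogenase kinase gene Pdk1 at 5.98 and 3.24, Ldha at 777 and 610, Pgk1 at 1021 and 735 and Vegfa, against the trend, at 19.9 and 31.3.

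Genes that are reported as targets of miR-93-5p or of its family were not lower as a group. Of 86 on the list, 69 were measured, and none was past 2-fold in either direction by FPKM. Of these 69, 41 had a ratio above 0 (52.5% of all genes had), and the median was 0.07, against 0.014 for all genes. Cdkn1a stood at 46.2 FPKM (31.2 to 61.3) in miR-93-5p and 48.5 (44.3 to 52.6) in mutant; its wide bounds in miR-93-5p give a log2 ratio of -3.22 in implied fragments, so for this gene the measures disagree. Tgfbr2 stood at 13.1 and 13.6 and E2f1 at 16.4 and 14.9, with overlapping bounds too. The lowest ratio was that of the D-type cyclin gene Ccnd2 (1.603 and 3.90 FPKM, log2 ratio -0.91), followed by the kinase gene Mapk9 (15.0 and 24.8). The highest were those of Irf1 and the autophagy receptor gene Sqstm1 (336 and 206). In implied fragments Ccnd2 was past 2-fold lower, with a log2 ratio of -3.14. Mapk9 had 0.05 there, Irf1 0.37 and Sqstm1 0.35. Classical tumour suppressors likewise had a median of 0.10 over 43 genes, of which Trp53 alone was past 2-fold lower by FPKM (78.2 and 176), at 0.76 in implied fragments. A message held back in translation without loss of RNA would not be seen in these values.

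**Figure D4:**
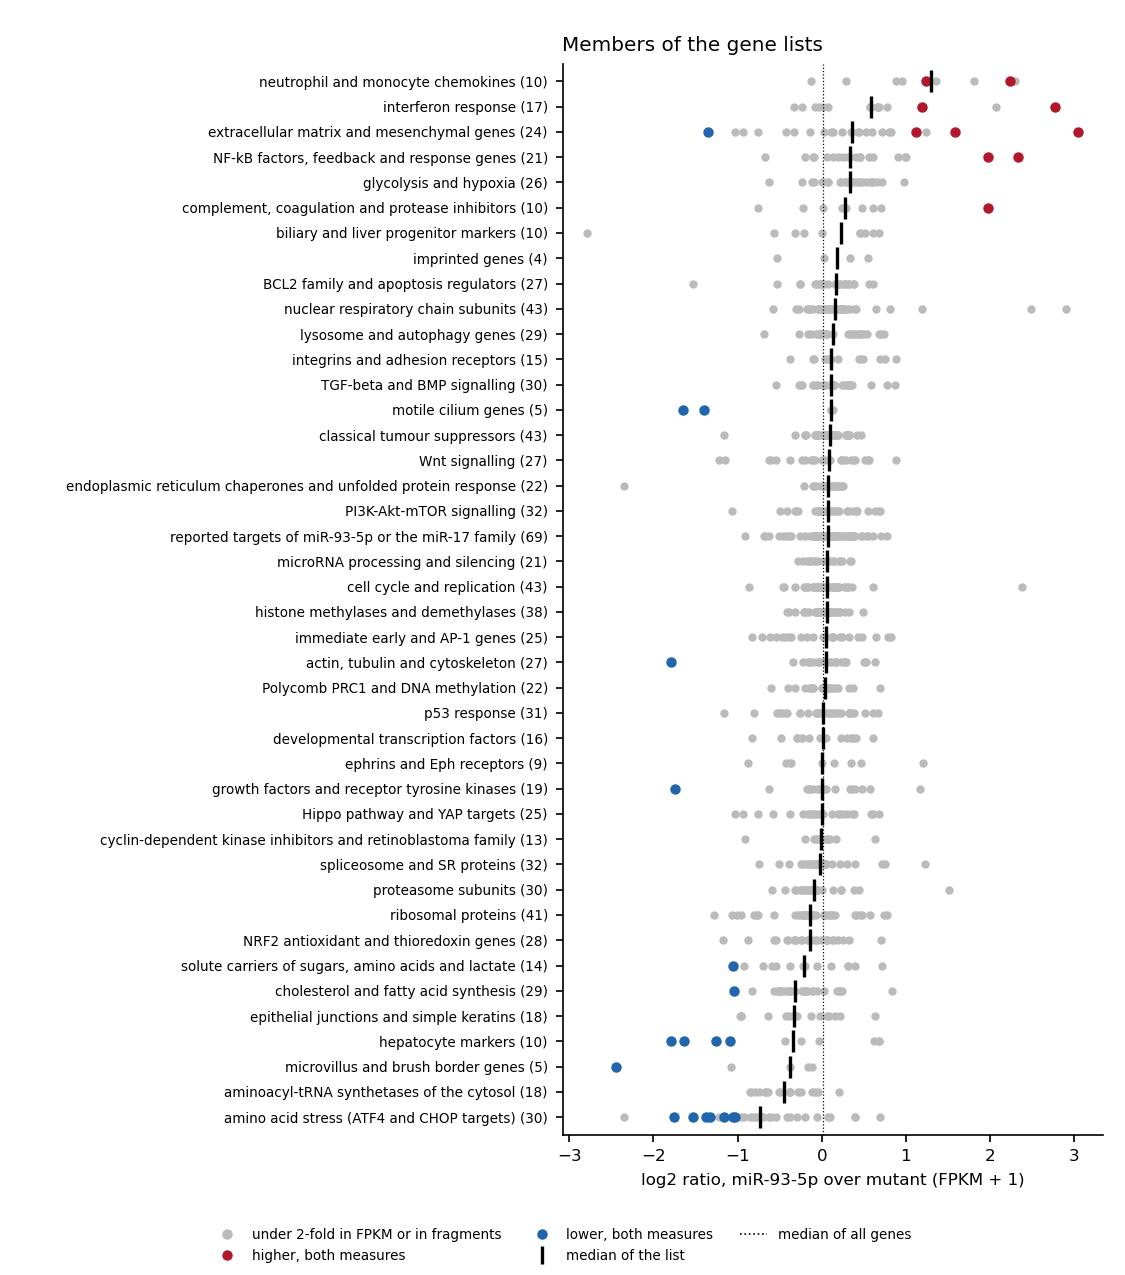
Log2 ratio of miR-93-5p over mutant (horizontal axis, FPKM + 1) of each measured member (points) of the 42 lists with 4 or more measured genes, ordered by list median (black bar), with the number measured in brackets; the dotted line is the median of all genes. Amino acid stress genes lie lowest, with a median of -0.73, chemokines highest, with 1.30, and reported targets of miR-93-5p near the dotted line, with 0.07.

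The 2 measures disagreed for many genes called by FPKM alone. Of the 318 genes past 2-fold by FPKM, 115 were past it in both measures and 88 had a ratio of opposite sign in implied fragments, 40 of the higher genes and 48 of the lower. The spread of log2 ratios over all genes was wider in implied fragments (SD 0.93 across genes) than in FPKM (SD 0.42), and both exceeded the median counting error of 0.064. The largest FPKM ratios of genes under 1.2-fold or opposite in implied fragments were those of the complex I gene Ndufa13 (228 and 19.1 FPKM, log2 ratio 3.504, 0.09 in fragments), the cell cycle ubiquitin ligase gene Anapc11 (128 and 15.8) and the complex I gene Ndufs6 (151 and 26.2) among the higher, and of the water channel gene Aqp1 (7.98 and 61.1), Yae1d1 (5.52 and 40.2) and S100a13 (10.7 and 67.9) among the lower. Tk1 (161 and 30.1), Uqcrb (301 and 39.3) and Psma2 (212 and 73.7) were past 2-fold by FPKM with log2 ratios of 0.26, 0.34 and 0.22 in implied fragments. Loci of these genes covered unlike stretches in the 2 libraries in several cases, with a shared part of 0.54 of the joint length for Ndufa13 and 0.32 for Yae1d1.

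**Figure D5:**
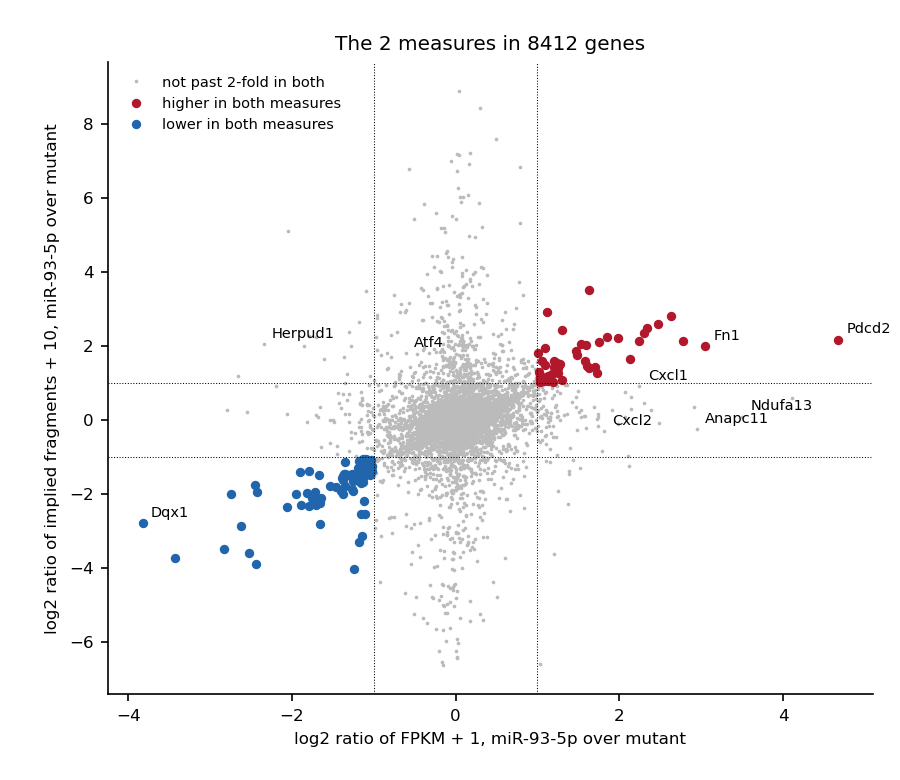
Log2 ratio in FPKM (horizontal axis) against log2 ratio in implied fragments (vertical axis), miR-93-5p over mutant, for 8412 genes, 1 point each; dotted lines mark 2-fold. The 47 red and 68 blue points are past 2-fold in both, Ndufa13 and Anapc11 lie far right near 0 in fragments, and Herpud1 lies at -2.35 in FPKM and 2.06 in fragments.

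Some protein-coding genes had a locus in 1 library and none that overlapped them by any base in the other. With an FPKM of at least 1 there were 55 in the miR-93-5p library, at 1.03 to 37.2 FPKM, and 50 in the mutant library, at 1.01 to 26.0. Locus numbers run to 18810 in the miR-93-5p table and to 20935 in the mutant table and skip 1988 and 2859 of them, so a gene without a locus has no value rather than a value of 0, and no fold is given. The highest in the miR-93-5p library were Mrpl49 (37.2 FPKM), Taf6 (34.4), Cnpy4 (27.6), Syvn1 (26.1) and Surf1 (25.9). Mrpl49 and Syvn1 adjoin each other on chromosome 19, and Taf6 and Cnpy4 on chromosome 5. The highest in the mutant library were Gm5544 (26.0), Ermard (18.5), Bcam (17.3), Gm10479 (12.5) and Xpnpep3 (6.34). Genes of inflammation, chosen after their values were seen, stood on both sides. Lcn2, a defence protein that binds iron carriers of bacteria, was listed at 7.75 FPKM in the miR-93-5p library alone. So were Orm3 (5.07), Serpina3g (3.34), Ccl5 (2.95), Tnip3 (2.29), Ifi207 (1.36), Saa3 (1.33), Ifitm6 (1.19) and Il24 (1.17). The genes named for either library are examples and give no count of a side. The calcium-binding protein gene S100a8 (5.03), the adhesion molecule gene Icam1 (1.46), the interferon gene Isg15 (1.25) and the chemokine gene Ccl6 (1.05) were listed in the mutant library alone.

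Called genes were neighbours in a few places. Among genes past 2-fold in both measures, adjacent pairs of the same direction were Col6a2 and Col6a1 on chromosome 10 (higher), and Tnfrsf21 and Adgrf5 on chromosome 17, Aldh1a1 and Aldh1a7 on chromosome 19 and Fxyd5 and Fxyd3 on chromosome 7 (lower). Aldh1a1 and Aldh1a7, aldehyde dehydrogenases of close sequence, stood at 18.98 and 44.8 FPKM and at 1.10 and 4.03, and reads can be divided between them. By FPKM alone there were 10 higher and 8 lower pairs.

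Other readouts of the study were set beside the called genes. In the pulldown of messages bound to biotin-labelled microRNA, also 1 library per construct, 4666 of the compared genes had a value with both the miR-93-5p and the mutant bait. The log2 ratio of bait over mutant bait in the pulldown and the RNA-seq ratio had a Pearson correlation of 0.0019 and a Spearman correlation of -0.018 across these genes. The median pulldown ratio was -0.38 for the 21 genes higher in RNA-seq, -0.32 for the 29 lower and -0.43 for all, with a range from the 25th to the 75th percentile of -1.06 to 0.15 for all. Ccl7 was higher in both (278 and 96.7 FPKM in the pulldown), and Anks4b lower in both (4.70 and 43.6). Other genes went opposite ways: Mgst1 (84.5 and 404), Cxcl12 (2.95 and 27.5) and Xlr (2.54 and 28.2) were higher in RNA-seq and lower in the pulldown. Of the 21 higher genes, 5 were past 2-fold higher in the pulldown and 7 past 2-fold lower, and of all genes 4.56% and 26.9%. Of the 29 lower genes, 0 were past 2-fold higher in the pulldown and 8 (27.6%) past 2-fold lower. In implied fragments the median pulldown ratio of all genes was -0.011. For the reported targets with a pulldown value, 31 genes, the median pulldown ratio by FPKM was -0.077, against -0.43 for all genes by FPKM.

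Histone marks were measured in the miR-93-5p cells and not in the mutant cells, so they describe the genes and not the difference. A peak of H3K4me3, the mark of active promoters, overlapped 98.5% of all compared genes, 44 of the 47 higher genes and 59 of the 68 lower ones. H3K27me3, the mark that Polycomb complexes set on silent genes, overlapped 163 of the 8619 genes (1.89%), 1 of the 47 higher genes (Abcg2) and 7 of the 68 lower genes (10.3%). These 7 were Amdhd1, Bcar3, Camsap3, Galnt11, Mfsd6, Ptpn13 and Spats2l, and each also overlapped an H3K4me3 peak. They stood between 0.817 and 2.42 FPKM in the miR-93-5p library. The median of the mean FPKM over both libraries was 7.83 for the 68 lower genes and 15.7 for all compared genes. Lower genes were called by lower values in the same miR-93-5p cells in which the mark was measured, so their share is not independent of the call. H3K9me3 peaks overlapped 18.3% of all genes, 11 of the 47 higher and 11 of the 68 lower.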

How the data were processed

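RNA was sequenced from 1 library of miR-93-5p cells and 1 of mutant cells. The deposited FPKM values and bounds are in tables of loci assembled per library; TopHat2, Cufflinks, Cuffdiff, CASAVA 1.4 and the build mm9 are named without settings in the submitters' processing notes. Peak lists with a score per peak were deposited for the histone marks, with Bowtie and MACS named in those notes; peak positions were used and the scores were not. Everything else was computed here with Python 3.11.15, pandas 2.3.3 and numpy 2.4.6, and figures with matplotlib 3.10.9.

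Gene loci in mm9 came from 35640 rows with an Ensembl identifier in the pulldown tables; 31023 of 35620 identifiers had a symbol and 18804 symbols were protein-coding. A locus took a gene's name if neither overlapped another gene or locus more. The ratio is log2 of FPKM + 1, which understates differences of low genes. Implied fragments are the square of 2 FPKM over the distance from the FPKM to its upper bound; 207 genes with fewer than 3 in a library had no fragment ratio. Depth, the sum of implied fragments, limits precision for counting error only. The steps were tested on simulated data in which FPKM and bounds came from the same drawn count of a gene in each library. The 2 measures could not part there as they do in the deposited values, so that test does not bear on their disagreement. Pulldown loci use another coordinate scheme and were named through GRCm38.p6 genes.

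Named genes are the 20 largest ratios each way among those past 2-fold in both measures with bounds apart, up to 4 members of each of 45 lists by size of ratio, the 6 largest FPKM ratios that fragments did not share, the 5 highest loci listed in 1 library, Cdkn1a, E2f1, Tgfbr2 and Mcm7, and, for lists with a median at least 0.3 from that of all genes, members past 2-fold in both measures; further members are given as contrast. Some genes that the rule names are counted but not reported here by name. The members and lists were chosen with earlier results of these data known. Alternatives were pseudocounts, filters, matching rules, scaling, summed loci, fragments and fold limits.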

Additional observations from a re-analysis of the deposited data

How the results depend on the processing

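No paired analysis was possible because each construct had 1 library, and no replicate could be left out. Counts of genes depended on the settings. With a pseudocount of 0.1 FPKM, 71 genes were higher in both measures. With 5 FPKM, 85 were higher and 77 lower by FPKM and 21 and 29 in both, and medians fell nearer to 0 for NF-kB genes (0.27), matrix (0.22), epithelial junctions (-0.27), hepatocyte markers (-0.23) and glycolysis (0.29). A mean FPKM of at least 5 gave 0.30 for matrix. Where a locus had to share 0.9 of its joint length with the gene, 88 were higher and 93 lower by FPKM and 44 lower in both, with medians of 0.24 for matrix, -0.12 for junctions, -0.23 for hepatocyte markers and -0.27 for microvilli. Where loci of both libraries had to share 0.9, 100 were higher by FPKM, with -0.21 for junctions and -0.23 for hepatocyte markers. With FPKM summed over loci, 336 were higher and 284 lower, 122 and 123 in both, with -0.12 for hepatocyte markers, -0.28 for cholesterol synthesis and -0.170 for microvilli, and Pdcd2 (-0.10) and Bcar3 (0.29) changed sign. Implied fragments alone gave 497 and 539 genes, aminoacyl-tRNA synthetases changed sign (0.091), and cholesterol synthesis (-0.10), glycolysis (0.26) and microvilli (-0.16) lay nearer to 0. In fragments Anapc11 (-0.25), Ndufs6 (-0.082), Cxcl2 (-0.30), Snrnp70 (-0.47), Ndufs8 (-0.46), Vegfc (-0.35), Trp53 (0.76), Herpud1 (2.06), S100a13 (0.22), Yae1d1 (1.18) and Aqp1 (0.28) also changed sign. A limit of 1.5-fold gave 513 and 427 by FPKM and 206 and 194 in both, and 4-fold gave 23 and 17, and 7 and 8. The cause was not tested. Of 56 named genes past 2-fold in both measures, 40 were still past it with a pseudocount of 5 FPKM. Depth limits low genes most, and with 1 library per construct no setting stands in for replicates.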

Other observations

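Genes of large housekeeping complexes had list medians within 0.3 of that of all genes. Of 43 measured genes on a list of 48 nuclear respiratory chain subunits, 3 were past 2-fold higher by FPKM and none in both measures. Their median log2 ratio was 0.16 by FPKM and 0.092 in implied fragments, and 1.88% of all genes were as much higher by FPKM. Uqcr10 and Ndufa13 are also such subunits but are not on that list. Uqcr10 was past 2-fold higher in both measures, with log2 ratios of 2.13 and 1.64, and Ndufa13 by FPKM only. Of 41 ribosomal protein genes, 3 were past 2-fold lower by FPKM and none in both (1.81% of all genes were as much lower by FPKM), with a median of -0.13 by FPKM and -0.25 in implied fragments. Of 30 proteasome subunits, 23 had a ratio below 0 (47.5% of all genes had), with a median of -0.10 by FPKM and 0.03 in implied fragments.

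Lists of chromatin and microRNA machinery held no gene past 2-fold by FPKM. These were 38 histone methylases and demethylases (median 0.06), 22 Polycomb and DNA methylation genes (0.04) and 21 genes of microRNA processing and silencing (0.07). Rdh10, Aldh1a1 and Aldh1a7, chosen after their values were seen, were lower in both measures (0.808% of all genes were). Rdh10, which oxidises retinol, stood at 18.8 FPKM in miR-93-5p and 49.7 in mutant. The others are aldehyde dehydrogenase genes, between which reads can be divided.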
